A study of Mus musculus with 11 samples.

Results

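The ankyrin repeat proteins Ankrd1, Ankrd2 and Ankrd23, the LIM domain proteins Fhl1, Fhl2, Csrp3 and Lmcd1 and the Xin repeat proteins Xirp1 and Xirp2 were followed as a set of 9 genes tied to mechanical load in muscle. They were read from an Affymetrix expression array of mouse hearts, taking for each gene the probe set that carried exactly 1 gene symbol and had the highest mean over the 11 arrays, with any other such probe set beside it. By that rule 8 of the 9 genes had a value, out of 18194 genes in all, and Xirp2 was not analysed here.

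The hearts came from 4 groups of C57BL/6 mice. There were 3 arrays each of HMGN5 transgenic adults, control adults and HMGN5 transgenic newborns, and 2 of control newborns, all labelled as biological replicates. Total RNA was taken from the left ventricle, which the sample labels call heart. The transgene carried a FLAG-tagged mouse Hmgn5 cDNA behind a LacZ block flanked by loxP sites and the CAG promoter, and that block was removed by crossing to an alphaMHC-cre line, in which a promoter specific to heart muscle cells drives the Cre. HMGN5 is a nucleosome-binding protein of the high mobility group N family. The controls are described as wild type, so effects of the Cre and of HMGN5 cannot be told apart, and the number of transgenic founder lines was not given in the sources used here. Age in days was also not given beyond the words adult and newborn.

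Ankrd1, Ankrd2 and Ankrd23 form the muscle ankyrin repeat protein family, whose members bind the spring segment of the giant sarcomere protein titin and can also enter the nucleus. Fhl1 and Fhl2 are built from LIM domains and bind titin too, while Csrp3, also known as muscle LIM protein, sits at the Z-disc, where neighbouring sarcomeres are anchored. Xin proteins bind actin and the adherens junctions of the intercalated disc, the contact between heart muscle cells. Lmcd1 is a LIM protein reported to raise calcineurin signalling and to bind GATA6 in heart muscle. In overloaded or failing hearts Ankrd1 and Fhl1 are well known to be raised.

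Values are log2 expression levels, so a difference of 1 is a doubling, and levels of different probe sets were not set against each other. Differences were tested with limma over all 18194 genes, 2-sided, and called where the Benjamini-Hochberg adjusted p was under 0.05. Array medians lay between 5.12 and 5.18, and arrays of one group correlated at r = 0.975 to 0.997 over the genes. The third array of each adult group stood apart: its 18S ribosomal control probe sets averaged 12.18 in the transgenic and 11.89 in the control heart, against 7.64 to 8.58 on the other adult arrays. Malat1, a nuclear RNA, read 13.04 and 12.75 on the same arrays, against 8.15 to 9.33 on the other adult arrays. The third control adult also read 7.62 for Ucp1, a brown fat gene, against 3.43 to 3.91 on every other array. Atrial marker genes (Myl4, Myl7, Sln) averaged 10.53, 6.59 and 6.52 in the transgenic adults and 10.10, 10.38 and 12.24 in the control adults and varied widely within both groups. The differences between the adult groups were large, at -1.88 for Myl4, -3.23 for Myl7 and -3.97 for Sln. None of these 3 markers was called (adjusted p = 0.158, 0.0605 and 0.0575 by limma). Their part in the results was not tested. The 8 general heart muscle markers summed to 16.72 to 16.82 in transgenic adults and 16.82 to 16.91 in control adults. The Hmgn5 probe set averaged 8.42 in transgenic and 8.57 in control adults, a difference of -0.16 (SE 0.14, adjusted p = 0.647), and 8.70 in transgenic and 8.83 in control newborns, a difference of -0.13 (SE 0.16, adjusted p = 0.999985). The arrays therefore gave no check of genotype, and the direction of every difference in the following is that of the labels.

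The first question was how these genes stood in adult transgenic hearts. Ankrd1, Fhl1 and Ankrd23 were higher in HMGN5 transgenic adults than in control adults, by 2.94-fold, 2.97-fold and 1.97-fold. No member was called lower. The 3 called of 8 compare with 7.09% of all genes called in this contrast, 4.16% higher and 2.93% lower. The median difference of the 8 was 0.71, against 0.00 over all genes, and 7 of the 8 differences were above 0. The members were chosen with earlier results of these data known, so these counts are no independent test of the set. These are bulk samples, in which more cells of a type and more RNA per cell cannot be told apart.

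Ankrd1, the cardiac ankyrin repeat protein, lies on chr19:36111965-36119844 of GRCm38.p6. Its level was 13.89, 13.83 and 13.89 in the 3 transgenic adults, against 12.53, 12.57 and 11.85 in the 3 control adults. All transgenic adults lay more than 1 log2 unit above the highest control adult, and the transgenic hearts were close together while the third control was the lowest. The difference was 1.56 (SE 0.21, adjusted p = 0.00166). Its second probe set read 13.75, 13.78 and 13.77 in the transgenic adults and 12.84, 12.66 and 11.93 in the control adults. That probe set gave a difference of 1.29 (SE 0.22, adjusted p = 0.0128 over every probe set), so both probe sets for Ankrd1 were called in the same direction. Without the third control adult, the heart with Ucp1 signal, the first probe set gave 1.32 (adjusted p = 0.00324). In the transgenic adults the first probe set was only 0.32 to 0.49 below the brightest probe set of its array, against 1.80 to 2.44 below it in control adults. Whether brightness limited the Ankrd1 difference was not tested.

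Fhl1, the first of the four-and-a-half LIM proteins and a titin-binding partner of the sarcomeric I-band, lies on chrX:56731209-56793346. It read 12.19, 12.40 and 13.18 in the transgenic adults, against 10.84, 10.90 and 11.31 in the control adults. Every transgenic adult lay above every control adult, and in each group the third array, one of those with high 18S signal, was the highest. The difference was 1.57 (SE 0.23, adjusted p = 0.00269). Between arrays of the same number, which were not taken as pairs, it was 1.35, 1.49 and 1.87. With the third arrays of both groups left out it was 1.42 (SE 0.14, adjusted p = 0.000211). The second Fhl1 probe set was dim, at 3.31 ± 0.29 in transgenic adults and 3.22 ± 0.32 in control adults (SD, n = 3 each), below the median of every array, and its difference of 0.09 was not called (adjusted p = 0.916 over every probe set).

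Ankrd23, the diabetes-related ankyrin repeat protein of the same family as Ankrd1, lies on chr1:36530193-36536556. Its level was 11.69, 11.58 and 11.37 in the transgenic adults, against 10.73, 10.45 and 10.53 in the control adults. The groups did not overlap, and both were tight. The difference was 0.97 (SE 0.15, adjusted p = 0.00329), and with the third arrays of both groups left out it was 1.04 (SE 0.17, adjusted p = 0.00326). Ankrd1 without those arrays differed by 1.31 (SE 0.19, adjusted p = 0.0017), so all 3 calls were also made without them.

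Ankrd2, the family member best known from slow skeletal muscle, read 5.73, 5.34 and 5.51 in the transgenic adults, against 5.26, 5.33 and 5.18 in the control adults. Its highest value on any array was 0.59 above that array's median and its lowest was at the median, so little signal stood behind these values. The difference of 0.27 (SE 0.12, adjusted p = 0.217) was not called.

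**Figure D1:**
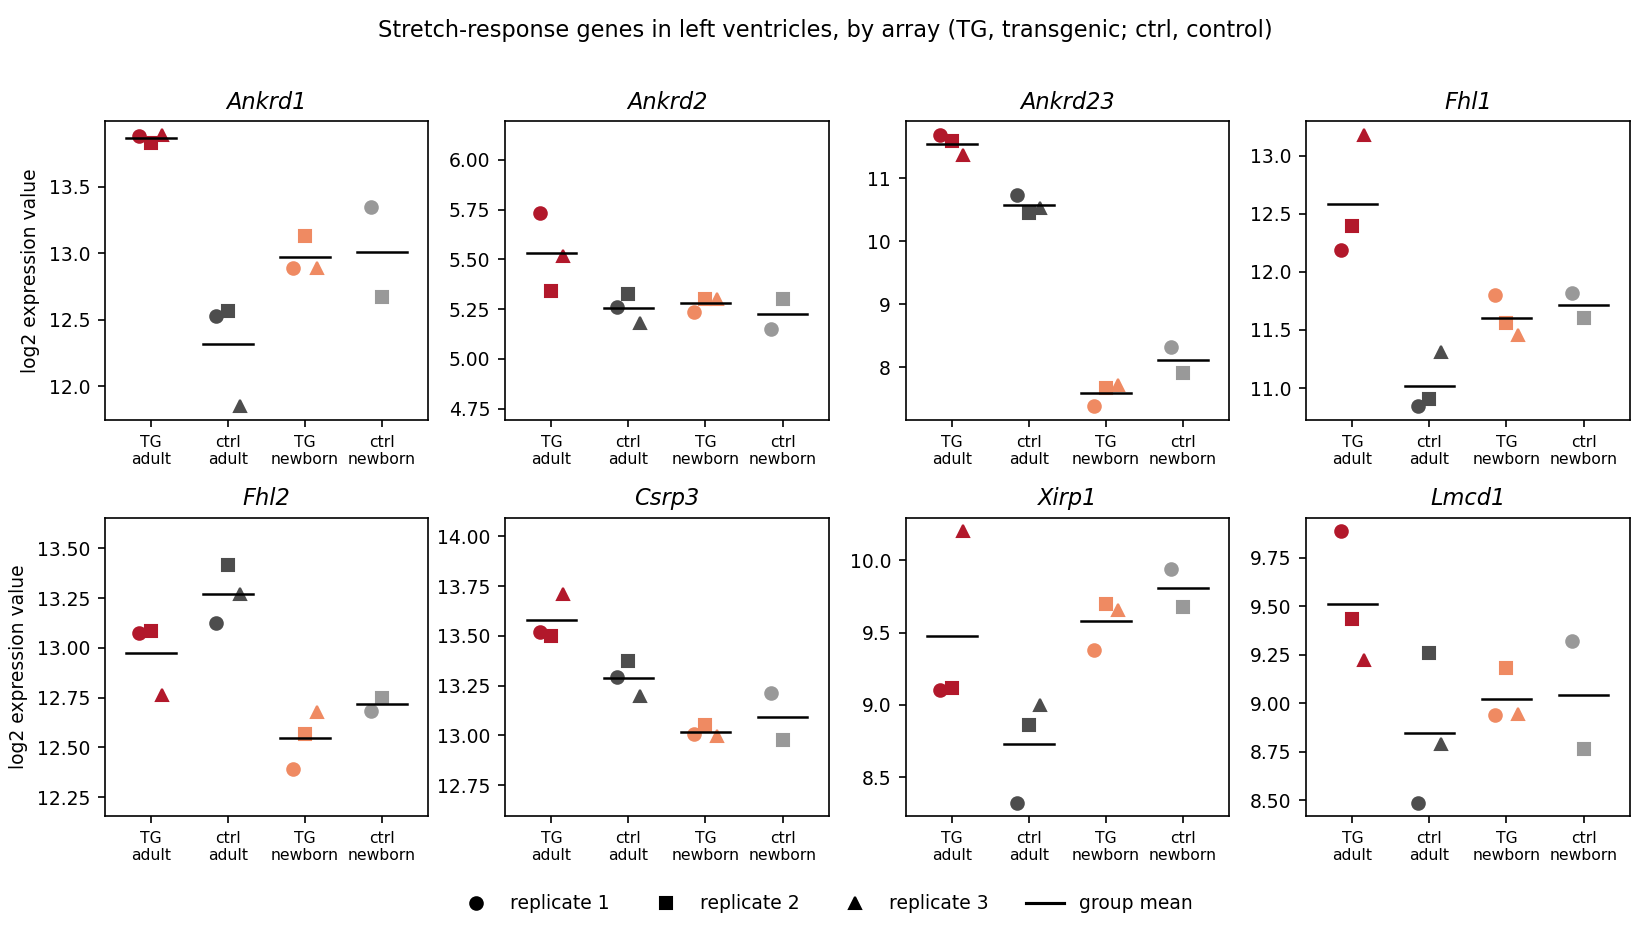
Level of each of the 8 measured members on each array (log2, one panel a gene, each with its own y axis), with a point for each of the 11 arrays and a bar at the group mean, in the order transgenic adult, control adult, transgenic newborn, control newborn. The 3 transgenic adults lie above the 3 control adults for Ankrd1, Ankrd23 and Fhl1, and also for Ankrd2, Csrp3 and Xirp1, which were not called. Transgenic and control newborns lie close together for most genes.

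None of the remaining LIM and Xin members was called in adults. Csrp3 read 13.52, 13.50 and 13.71 in the transgenic adults, against 13.29, 13.37 and 13.20 in the control adults. The groups did not overlap, but the difference of 0.29 (SE 0.11, adjusted p = 0.153) was not called, and Csrp3 too was near the top of the array, 0.50 to 0.85 below the brightest probe set in transgenic adults. Fhl2, the most heart-restricted of the four-and-a-half LIM proteins, was the one member with a negative difference. It read 13.07, 13.09 and 12.76 in the transgenic adults, against 13.12, 13.42 and 13.27 in the control adults, a difference of -0.30 (SE 0.13, adjusted p = 0.23) that was not called.

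Xirp1, the Xin protein of the intercalated disc, read 9.11, 9.12 and 10.20 in the transgenic adults, against 8.32, 8.86 and 9.00 in the control adults. The third transgenic heart stood more than 1 log2 unit above the other transgenic hearts, and the difference of 0.75 (SE 0.28, adjusted p = 0.151) was not called. With a term for the third adult arrays it was 0.75 (SE 0.18, adjusted p = 0.0166) and called, and with those arrays left out it was 0.52 (SE 0.18, adjusted p = 0.0998) and not called. Lmcd1 read 9.89, 9.43 and 9.22 in the transgenic adults, against 8.49, 9.26 and 8.79 in the control adults. The second control lay within the range of the transgenic hearts, and the difference of 0.67 (SE 0.23, adjusted p = 0.115) was not called. Without the third transgenic adult it was 0.81 (adjusted p = 0.0441). The Lmcd1 probe set is of a kind that can share probes with other transcripts, so its level is less certain.

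Counted by overlap, the transgenic adults lay wholly above the control adults for 6 members and wholly below them for 1, Fhl2. Over all genes the same held for 10.0% and 7.94%. The 5 members not called had 95% intervals of the adult difference that excluded 0 before adjustment, as did 3669 of the 18194 genes, so a p that misses the adjusted threshold does not show that these genes were alike in the 2 groups.

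Markers of other cell types were read in the same adult hearts. Of the 6 smooth muscle and pericyte markers 2 were called higher in transgenic adults and none lower, and their summed level was 13.35 to 13.51 in the transgenic adults and 12.71 to 13.11 in the control adults. The genes called, picked out after their values were seen, were Acta2, with a difference of 1.56, and Cnn1, with 1.83. Of the rest, Tagln differed by 0.94, Myh11 by 0.10, Pdgfrb by 0.08 and Rgs5 by -0.20, none of them called. Of the 6 fibroblast markers 1, Tcf21, was called higher, by 0.82, and their sum was 14.07 to 14.12 in transgenic adults and 13.30 to 13.84 in control adults. The summed levels, to which bright genes add most, did not overlap between the groups for either list. The mean log2 values of the fibroblast markers did overlap, at 10.17 to 10.56 in transgenic and 9.38 to 10.23 in control adults. Those of the smooth muscle and pericyte markers did not. The 8 heart muscle markers had 0 called in either direction, and of the 8 skeletal muscle markers 1, Tnnt3, was called higher, by 0.84 (SE 0.18, adjusted p = 0.0169). The skeletal muscle list summed to 7.78 to 7.98 in transgenic adults and 7.60 to 8.06 in control adults. Of the 4 macrophage markers 1, C1qc, was called higher, by 0.69 (adjusted p = 0.0188), with a sum of 10.97 to 11.82 in transgenic and 10.66 to 11.37 in control adults. Of the 5 endothelial markers 1, Kdr, was called lower, at -0.78 (adjusted p = 0.0209), with a sum of 10.78 to 11.10 in transgenic and 10.99 to 11.15 in control adults. None of the 3 measured fat markers was called. Adipoq lay wholly lower in transgenic adults, at -1.93 (adjusted p = 0.158), and Cidea wholly higher, at 0.63 (adjusted p = 0.127). Ucp1, at -1.33 (adjusted p = 0.391), overlapped. The fat markers summed to 9.57 to 10.25 in transgenic and 9.52 to 9.77 in control adults. None of the 2 measured erythroid markers was called. Tcf21, Tnnt3, C1qc, Kdr, Adipoq and Cidea too were picked out after their values were seen. The part of other cell types in the differences of Ankrd1, Fhl1 and Ankrd23 was not tested.

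The sequence just before annotated starts of these genes was read because Ankrd1, Fhl1 and Ankrd23 were higher together. RefSeq promoter windows (GRCm38.p6) were available for 8 of the 9 genes, 12 windows in all. These were all but Xirp1 and so included Xirp2, which had no expression value here, and the 250 bases before each start were searched on both strands. The motifs were the TEAD site CATTCC, the GATA site GATAA, the CArG box bound by serum response factor and the MEF2 site. Ankrd1 had 2 TEAD matches, within chr19:36120039-36120064 and chr19:36119952-36119977. Ankrd23 had 1, in the second of its 2 windows, within chr1:36535844-36535869, and 0 in the first. Fhl1 had a CArG box in the first of its 2 windows, within chrX:56779571-56779600. These windows of Ankrd23 and Fhl1 lie inside the gene spans given above, at starts within the gene. Fhl2 had a CArG box in each of its windows, within chr1:43196838-43196867 and chr1:43163973-43164002, and Lmcd1 had one within chr6:112273533-112273562. These coordinates are those of the stretches printed below, each on the strand of the gene, with the match in capitals and 10 flanking bases on each side. Ankrd1, Ankrd23 and Fhl2 run on the minus strand, Fhl1 and Lmcd1 on the plus strand. GGAATG is the TEAD motif on the opposite strand.
Ankrd1 TEAD match, upstream: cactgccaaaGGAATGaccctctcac
Ankrd1 TEAD match, nearer the start: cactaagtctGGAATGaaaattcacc
Ankrd23 TEAD match: cagtgggccaCATTCCcagaacggta
Fhl1 CArG box: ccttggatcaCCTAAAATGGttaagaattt
Fhl2 CArG box, first window: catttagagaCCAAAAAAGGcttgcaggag
Fhl2 CArG box, second window: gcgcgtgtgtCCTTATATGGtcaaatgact
Lmcd1 CArG box: tgctccttgcCCTTTAAAGGagaagggcgt

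The TEAD motif was in 2 of the 12 member windows (16.7%) and in 12.6% of the 32851 windows of all genes. The CArG box was in 4 of the 12 member windows (33.3%) and in 1.47% of all windows. GATA was in 3 of 12 (25%), those of Ankrd1, Ankrd23 and Fhl2, against 22.6%. MEF2 was in 2 of 12, those of Fhl2 and Xirp2, against 2.92%. A match describes letters in the window and is no evidence of binding, and the genes with a CArG box included Fhl1, which was called higher in transgenic adults, and Fhl2, which was not.

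The other genes of the same structures and pathways were read from lists. Among 20 other LIM domain proteins 5 were higher and 1 was lower in transgenic adults, with a list median of 0.33. Those named by the smallest p were Pdlim7 at 1.22 (SE 0.23, adjusted p = 0.00888), Zyx, the focal adhesion protein zyxin, at 1.13 (SE 0.18, adjusted p = 0.00353), Pdlim1 at 0.77 and Csrp1, a smooth muscle relative of Csrp3, at 0.74. Outside the naming rule and named after their values were seen, Pdlim2 was also higher, by 1.28, and Pdlim4 was lower, at -0.98. The 5 of 20 called higher stand beside 4.16% of all genes.

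Among 18 measured partners of titin and the Z-disc 3 were higher and 1 lower, beside 4.16% and 2.93% of all genes. The list median was 0.07. Synpo2l, a Z-disc actin-binding protein, averaged 11.57 in transgenic adults and 10.19 in control adults, a difference of 1.38 (SE 0.16, adjusted p = 0.000679). Des, the muscle intermediate filament desmin, differed by 0.73 and Smpx, a small muscle protein, by 0.42, while Nebl, the cardiac nebulin relative nebulette, differed by -0.66. Ttn, titin itself, named outside the rule, averaged 12.76 in transgenic adults and 13.10 in control adults, a difference of -0.34 (adjusted p = 0.514) that was not called. Of the 14 partners of the Xin proteins at the intercalated disc 0 were called in either direction, with a median of -0.04. Their smallest p belonged to Dsg2, a desmosomal cadherin, at -0.39 (adjusted p = 0.219), followed by the cadherin Cdh2 at -0.40 (adjusted p = 0.304), the catenin Ctnna3 at -0.24 (adjusted p = 0.331) and the junction scaffold Tjp1 at -0.26 (adjusted p = 0.352).

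Of 11 calcineurin and NFAT genes 1 was called, beside 7.09% of all genes. It was Nfatc4, an NFAT factor acting downstream of calcineurin, with a difference of 0.47 (SE 0.10, adjusted p = 0.0195). Rcan1, a calcineurin target and inhibitor, differed by 0.70 (adjusted p = 0.141) and was not called. The calcineurin subunit Ppp3cb at -0.37 (adjusted p = 0.19) and Nfatc2 at -0.33 (adjusted p = 0.395) were not called either. Of 13 genes of YAP, TEAD and their targets 2 were higher and 0 lower, beside 4.16% and 2.93% of all genes. Ccn2, the connective tissue growth factor and a YAP target, averaged 12.42 in transgenic adults and 9.89 in control adults, a difference of 2.53 (SE 0.26, adjusted p = 0.000352), and Ajuba, a LIM protein that binds the kinase LATS, differed by 0.42 (adjusted p = 0.0217). Ccn1 at 0.70 (adjusted p = 0.124) and Wwtr1, which encodes TAZ, at 0.47 (adjusted p = 0.102) were not called.

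**Figure D2:**
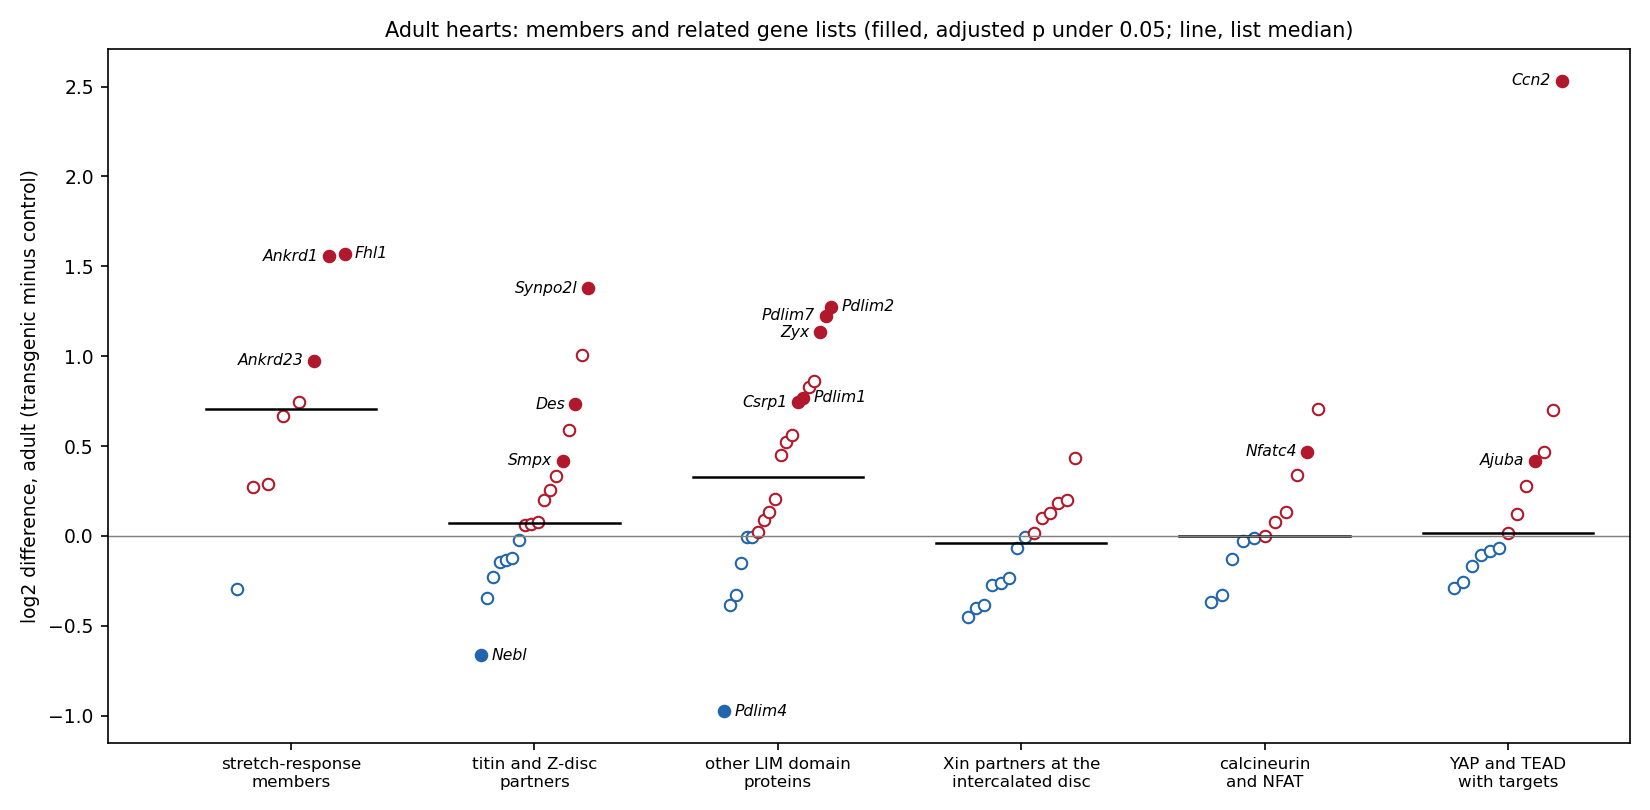
Difference of each measured gene between transgenic and control adults (log2, transgenic minus control), for the members and the 5 related lists, with filled points where the adjusted p was under 0.05 and a line at each list's median. The 8 members have the highest median, 0.71, and Ccn2 at 2.53 is the highest point plotted. Members and lists were chosen with earlier results of these data known.

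The second comparison asked whether the same genes differed at birth. In newborn hearts 0 of the 8 members were called between transgenic and control, and limma called 0 of all 18194 genes (0%), with 198 genes at an unadjusted p under 0.05. Ankrd23 was the 1 member among those 198. Its level was 7.38, 7.67 and 7.71 in the transgenic newborns, against 8.32 and 7.91 in the control newborns. The transgenic newborns lay below both controls, opposite in direction to the adults. The difference was -0.53 (SE 0.17, adjusted p = 0.999985 by limma), with a 95% interval of -0.90 to -0.16.

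The other 7 members differed by between -0.23 and 0.05 in newborns. Ankrd1 read 12.89, 13.13 and 12.89 in the transgenic newborns, against 13.35 and 12.67 in the control newborns. The controls spanned the transgenic values, and the difference of -0.04 had a 95% interval of -0.56 to 0.47. Fhl1 read 11.80, 11.56 and 11.46 in the transgenic newborns, against 11.82 and 11.60 in the control newborns, a difference of -0.10 with an interval of -0.68 to 0.47. The groups overlapped for both genes, and for each the interval stopped short of the adult difference of 1.56 or 1.57. Those adult differences have errors of their own, and the direct test of the effects, given below, called neither gene.

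Fhl2 read 12.39, 12.57 and 12.68 in the transgenic newborns, against 12.68 and 12.75 in the control newborns, and differed by -0.17 (interval -0.49 to 0.15). Csrp3 read 13.01, 13.05 and 13.00 in the transgenic newborns, against 13.21 and 12.98 in the control newborns, and differed by -0.07 (interval -0.34 to 0.19). Xirp1 read 9.38, 9.70 and 9.66 in the transgenic newborns, against 9.94 and 9.67 in the control newborns, with a difference of -0.23 (interval -0.91 to 0.46). Among these 3 genes the groups overlapped for Csrp3 and Xirp1, while all transgenic newborns were below both controls for Fhl2. Lmcd1 read 8.94, 9.18 and 8.94 in the transgenic newborns, against 9.32 and 8.77 in the control newborns, and differed by -0.02 (interval -0.58 to 0.54). Ankrd2 stayed near the array median, at 5.24, 5.30 and 5.30 in the transgenic newborns against 5.15 and 5.30 in the control newborns. Transgenic newborns thus lay wholly below the control newborns for 2 of the 8 members and above them for 0, while over all genes 9.83% lay below and 11.1% above, 20.9% together. None of the 5 related lists had a gene called in newborns.

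The difference between the adult and the newborn effect was then tested itself. Of the 8 members 1, Ankrd23, was called, against 0.687% of all genes, 0.445% with the higher and 0.242% with the lower effect in adults. Its effect was 0.97 in adults and -0.53 in newborns, a difference of 1.50 (SE 0.22, adjusted p = 0.0173). Without the first control newborn this became 1.30 and was not called (adjusted p = 0.14). Ankrd1 had a difference of 1.60 (SE 0.31, adjusted p = 0.0511) and Fhl1 of 1.68 (SE 0.35, adjusted p = 0.0621), both larger than that of Ankrd23 but with wider errors and not called. Both were called without the third transgenic adult, with an adjusted p of 0.0274 for Ankrd1 and 0.0106 for Fhl1, and with the third arrays of both adult groups left out, with 0.0182 and 0.00258. Leaving out either control adult 1 or control adult 3 also brought Ankrd1 under the threshold (adjusted p = 0.0448 and 0.0488), and leaving out the first transgenic adult did so for Fhl1 (adjusted p = 0.0499). Each gene, taken singly, was not called under most alternatives: Ankrd1 was called under 9 of 21 and Fhl1 under 7 of 21. For Xirp1 the difference was 0.98 (adjusted p = 0.458), for Lmcd1 0.69 (adjusted p = 0.566) and for Csrp3 0.36 (adjusted p = 0.486), and none of these was called.

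**Figure D3:**
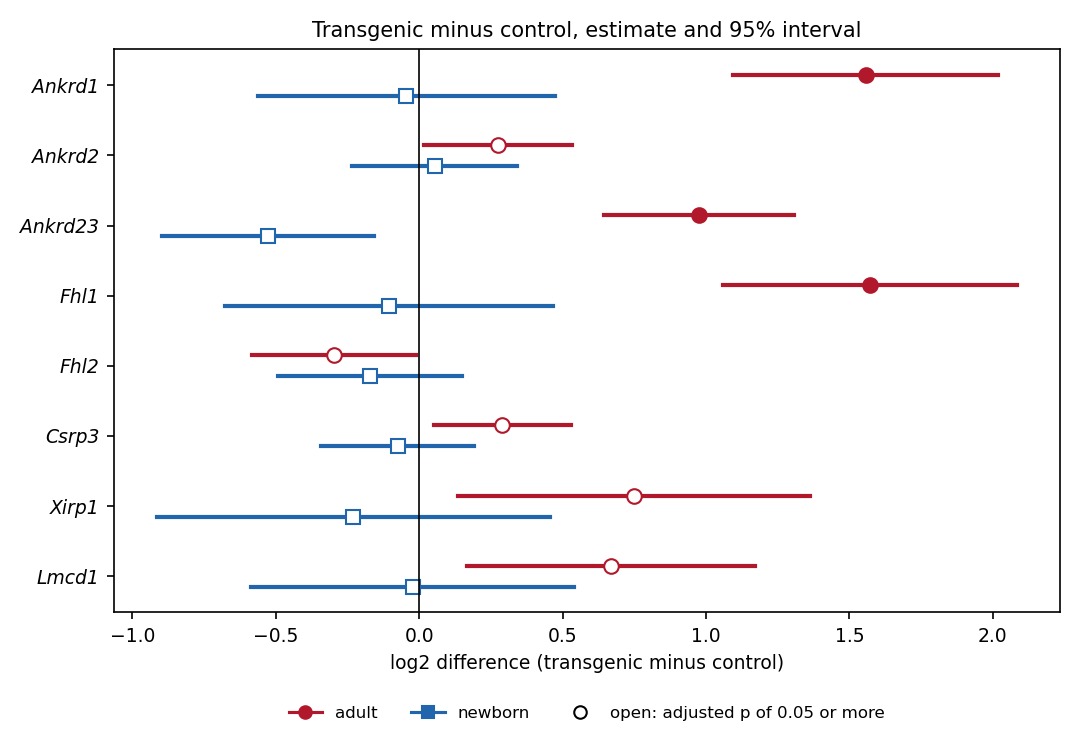
Difference between transgenic and control hearts (log2, transgenic minus control) for the 8 members, in adults (circles) and newborns (squares), with 95% intervals from limma and open symbols where the adjusted p was 0.05 or more. Ankrd1, Ankrd23 and Fhl1 have filled circles at 1.56, 0.97 and 1.57, and no newborn square is filled.

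The age comparisons share the adult and newborn arrays used above, and age cannot be told apart from any difference in how the arrays were processed. The 18S control probe sets read 10.05 to 10.53 on the newborn arrays, between the values of the adult arrays. Some marker lists also differed with age. All 3 atrial markers were lower in transgenic adults than in transgenic newborns, with 0 called in control hearts. All 4 macrophage markers were higher in adults of both genotypes. Of 6 smooth muscle and pericyte markers 4 were lower and 1 higher in control adults. For 6 fibroblast markers these counts were 3 and 1. Their part in the members' age differences was not tested. In control hearts 2 members were higher in adults, 2 were lower and 4 were not called, with 33.0% of all genes called, 14.9% higher and 18.1% lower. In transgenic hearts 5 members were higher in adults, 0 were lower and 3 were not called, with 39.4% of all genes called, 19.7% higher and 19.7% lower. At such shares a count of 4 or 5 of 8 members is not a result about the members, and their own values follow.

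Ankrd23 had the largest age difference of the members. The control adults averaged 10.57 ± 0.14 (SD, n = 3), against 8.12 ± 0.29 in the control newborns (SD, n = 2), a difference of 2.46 (SE 0.17, adjusted p = 2.57e-06) or 5.49-fold. The transgenic adults averaged 11.55 ± 0.16, against 7.59 ± 0.18 in the transgenic newborns (SD, n = 3 each), a difference of 3.96 (SE 0.15, adjusted p = 5.15e-08) or 15.5-fold. The 4 groups of Ankrd23 thus ran from transgenic adult through control adult and control newborn to transgenic newborn, and the newborn neighbours were the pair whose difference was not called.

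Ankrd1 and Fhl1 had another order. For Ankrd1 the transgenic adults averaged 13.87 ± 0.032 (SD, n = 3), the newborn groups lay between, at 12.97 ± 0.14 in transgenic and 13.01 ± 0.48 in control newborns, and the control adults were lowest at 12.31 ± 0.40. The newborn groups did not differ beyond their spread, while the transgenic adults were above the control newborns by 0.86 (adjusted p = 0.0196) and the transgenic newborns above the control adults by 0.66 (adjusted p = 0.0279). Adults were thus above newborns among transgenic hearts, by 0.90 (SE 0.21, adjusted p = 0.0068), and below them among control hearts, at -0.70 (SE 0.23, adjusted p = 0.0414). The control call was not firm: without the first control newborn the difference was -0.36, and without the third control adult it was -0.47 (adjusted p = 0.0938). Adjusted over every probe set, the first probe set gave -0.70 (adjusted p = 0.0568) and the second -0.48 (adjusted p = 0.185), neither of them called. The control call was also lost when the first or the second transgenic adult was left out (adjusted p = 0.0514 and 0.0528). The same held without any 1 of the transgenic newborns (adjusted p = 0.0576, 0.0551 and 0.0581). Leaving out these transgenic arrays left the difference itself as it was.

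Fhl1 followed the same order as Ankrd1. Its transgenic adults averaged 12.59 ± 0.52 (SD, n = 3), its control newborns 11.71 ± 0.16, its transgenic newborns 11.61 ± 0.17 and its control adults 11.02 ± 0.25, and the step between the transgenic adults and the control newborns, 0.88, was the one between neighbours that was called (adjusted p = 0.0274). Adults were above newborns by 0.98 among transgenic hearts (SE 0.23, adjusted p = 0.00736), while the control difference of -0.69 (SE 0.26, adjusted p = 0.0613) was not called. It was called without the third control adult, at -0.84 (adjusted p = 0.0404), and when the first or the third transgenic adult was left out (adjusted p = 0.043 and 0.00682). With the third arrays of both adult groups left out it was -0.84 and called (adjusted p = 0.00101), and with a term for those arrays it was -0.91 and called (adjusted p = 0.00086). The call was made under 8 of 22 alternatives in all.

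**Figure D4:**
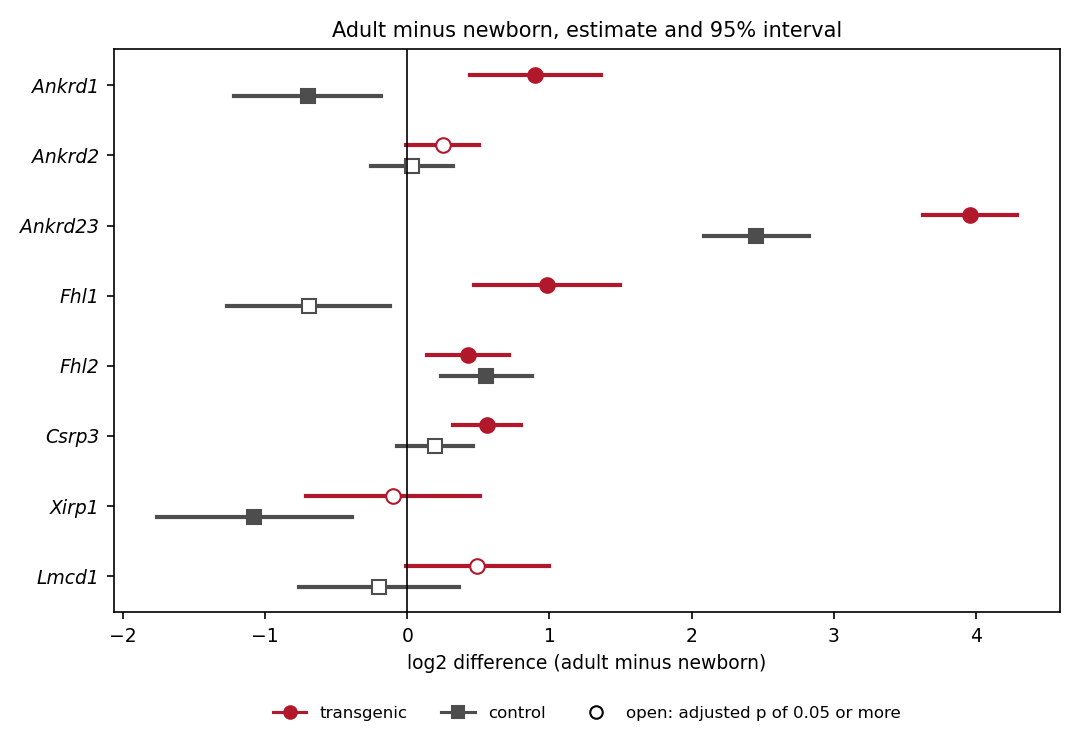
Difference between adult and newborn hearts (log2, adult minus newborn) for the 8 members, in transgenic and in control hearts, with 95% intervals from limma and open symbols where the adjusted p was 0.05 or more. Ankrd23 lies furthest right in both, at 3.96 in transgenic and 2.46 in control hearts, and Ankrd1 lies at 0.90 in transgenic and -0.70 in control hearts.

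Fhl2 was higher in adults at both genotypes, by 0.43 in transgenic hearts (SE 0.13, adjusted p = 0.0242) and by 0.55 in control hearts (SE 0.15, adjusted p = 0.0143). Both calls depended on single arrays. The control call was lost without the first control newborn (adjusted p = 0.107) or the second (adjusted p = 0.061), and the transgenic call without the first or second transgenic adult (adjusted p = 0.0771 and 0.0732) or the first or second transgenic newborn (adjusted p = 0.0964 and 0.0618). Csrp3 was higher in adults among transgenic hearts, by 0.56 (SE 0.11, adjusted p = 0.00252), and its control difference of 0.19 (SE 0.12, adjusted p = 0.231) was not called. Its 4 group means, 13.58 in transgenic adults, 13.29 in control adults, 13.02 in transgenic newborns and 13.09 in control newborns, spanned the narrowest range of the brightly read members.

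Xirp1 was lower in adults than in newborns among control hearts. The control adults averaged 8.73 ± 0.36, against 9.81 ± 0.19 in the control newborns, a difference of -1.08 (SE 0.31, adjusted p = 0.0222). That call was lost without the first control adult (-0.88, adjusted p = 0.0692), the first control newborn (-0.95, adjusted p = 0.159) or the second control newborn (-1.21, adjusted p = 0.0654). Among transgenic hearts the Xirp1 difference was -0.10 (SE 0.28, adjusted p = 0.785), and without the third transgenic adult, the high one, it was -0.46. Lmcd1 differed with age by 0.49 in transgenic hearts (SE 0.23, adjusted p = 0.107) and by -0.20 in control hearts (SE 0.26, adjusted p = 0.56), and without the third transgenic adult the transgenic difference was 0.64 and called (adjusted p = 0.0467). Ankrd2 differed by 0.25 in transgenic hearts (adjusted p = 0.11) and by 0.03 in control hearts (adjusted p = 0.867), and without the second transgenic adult the transgenic difference was 0.34 and called (adjusted p = 0.0463). For Fhl2, Csrp3, Xirp1, Lmcd1 and Ankrd2 no neighbours in the order of the 4 group means differed by the test, the smallest adjusted p being 0.11.

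More genes of the related lists were called by age than by genotype, as over all genes. Of 20 other LIM domain proteins 2 were higher and 7 lower in control adults than in control newborns, with Csrp1 at -2.82 (SE 0.14, adjusted p = 3.5e-07), Csrp2 at -2.24, Tgfb1i1, which encodes the adhesion protein Hic-5, at -1.94 and Zyx at -1.69. Csrp1 and Zyx were thus lower in control adults than in control newborns and higher in transgenic than in control adults, both set against the same control adults. Of 18 titin and Z-disc partners 5 were higher and 4 lower, led by Myot, the Z-disc protein myotilin, at 4.76 (SE 0.41, adjusted p = 1.36e-05) and Tcap, the cap of titin at the Z-disc, at 2.06, with Synpo2l at -1.73 and Myoz1 at -1.28. Among 14 Xin partners 1 was higher, Dsc2 at 1.11, and 3 were lower, Ctnnd1 at -1.15, Vcl at -0.60 and Tjp1 at -0.45. Of 13 genes of YAP, TEAD and their targets 0 were higher and 4 lower in control adults, namely Tead2 at -3.56 (SE 0.17, adjusted p = 1.86e-07), Ajuba at -2.20, Ccn2 at -1.03 and Wwtr1 at -0.57. Among 11 calcineurin and NFAT genes Rcan2 was higher, at 0.87, and Nfatc4 at -0.76, Cabin1 at -0.61 and Ppp3ca at -0.54 were lower.

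Genes with patterns most like each member were found from the root mean square difference between log2 values over the 11 arrays, each gene first centred on its own mean. For Ankrd1, whose values ranged over 2.04, the nearest were Krt80 at 0.207 and Trim47 at 0.214. Krt80 averaged 6.94 in transgenic adults, 5.70 in control adults, 6.14 in transgenic newborns and 6.12 in control newborns, the same order of highest and lowest group as Ankrd1. For Fhl1, with a range of 2.34, they were Gab2 at 0.222 and Map1a at 0.251. Between members the closest pair was Ankrd1 and Fhl1, at 0.383, and 107 genes lay closer to Ankrd1 than Fhl1 did and 58 closer to Fhl1 than Ankrd1 did.

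For Ankrd23, with a range of 4.31, the nearest genes were Ms4a4d at 0.338 and Scn7a, a sodium channel family gene, at 0.353. Ms4a4d averaged 9.24 in transgenic adults and 9.04 in control adults, against 5.77 in transgenic and 5.93 in control newborns. The likeness of Ms4a4d with Ankrd23 was thus mostly that of age. Scn7a averaged 9.04 in transgenic adults and 8.24 in control adults, against 5.84 in transgenic and 5.95 in control newborns, the order of groups seen for Ankrd23. Xirp1 had Parp4 at 0.202 and Pbxip1 at 0.203, and Lmcd1 had Arid5a at 0.153 and Sdf4 at 0.190. Fhl2 had Fbxl5 at 0.0845 and Fam160a1 at 0.0976, Csrp3 had Pcdhb11 at 0.0631 and Il7 at 0.0650, and Ankrd2 had Clca4a at 0.0648 and Npn2 at 0.0667. For Csrp3 and Ankrd2 the neighbours were dim probe sets with group means under 5, and a small distance there goes with a small range, 0.74 for Csrp3 and 0.58 for Ankrd2.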

How the data were processed

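Affymetrix arrays of 11 left ventricle samples were analysed from the log2 values deposited by the authors. RMA, affy and limma are named, without versions or roles, per the submitters' processing notes. Of 45101 probe sets, 34958 had 1 gene symbol in the platform annotation, 932 had several and 9211 had none listed, and 34754 were matched to RefSeq by gene ID, with 0 symbols changed. One probe set a gene (the highest mean over the arrays) gave 18194 genes, with no filter on low values.

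All 11 arrays entered a single group-means model (limma 3.58.1, R 4.3.3) with moderated variances (7 residual and 3.85 prior degrees of freedom). The Benjamini-Hochberg threshold for a call on a log2 difference was 0.05, each contrast being adjusted separately. The script was tested on simulated data. The number of arrays limits the precision.

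The members and gene lists were chosen with earlier results of these data known. Named are all members, the 2 genes most like each (identifiers without a gene name passed over) and, from each related list, the 4 genes with the smallest p in the adult genotype and the control age contrasts. Same-numbered arrays deviated together in some pairs and not in others, so replicate numbers were not used as pairs. Alternatives covered the replicate block, a filter on dim probe sets (kept if 2 arrays or more exceeded their percentile 40), other choices of probe set, variance model, array weights, samples, normalization, the third adult arrays and each array left out.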

Additional observations from a re-analysis of the deposited data

Results flagged for a closer look

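Ankrd23 deserves a second look because its genotype difference was not the same at the 2 ages by a test of the difference itself. The effect was 0.97 in adults and -0.53 in newborns on the log2 scale, so the difference between them was 1.50 (SE 0.22, limma adjusted p = 0.0173, 1 of 125 genes called among 18194). All 3 transgenic adults were above all 3 control adults and all 3 transgenic newborns were below both control newborns, although the newborn difference alone was not called. Over the alternatives the value lay between 1.30 and 1.71, with adjusted p between 0.00259 and 0.14, and it was called under 19 of 21. Groups of 3 or fewer arrays were not searched for outlying arrays.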

How the results depend on the processing

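Ankrd1, Ankrd23 and Fhl1 were called higher in transgenic adults under all 22 alternatives, with the lowest value, 0.83 for Fhl1, where its bright and its dim probe set were averaged. The newborn contrast had 0 members called under all 22. The count of members called for the difference between the adult and newborn effects was 1, and it became 2 with the filter on dim probe sets and with cyclic loess, and 3 with an intensity trend and robust variance, with array weights, with a factor for the third adult arrays and with both of those arrays left out; leaving out single arrays gave 0 to 3. The count for control adults against newborns was 4 and ran from 1 to 5 when single arrays were left out, with 1 without the first and 2 without the second control newborn, where the single remaining control newborn is assumed to vary like the other groups. Small differences changed sign. Lmcd1 in newborns was 0.018 under the replicate block and 0.018 with array weights, and ran from -0.30 to 0.26 with single arrays left out. In newborns Ankrd1 ran from -0.38 to 0.29, Ankrd2 from -0.019 to 0.13, Fhl1 from -0.22 to 0.0071 and Csrp3 from -0.19 to 0.043. Between control adults and newborns Ankrd2 was -0.10 with cyclic loess and ran from -0.043 to 0.10, and Lmcd1 ran from -0.48 to 0.079. Between transgenic adults and newborns Xirp1 was 0.031 with cyclic loess and ran from -0.46 to 0.083. The cause was not tested. The control age call of Ankrd1 was made under 10 of 22 alternatives, and that of Xirp1 under 18. With the replicate number as a block, the same 3 members were called in adults, at 1.56 for Ankrd1, 0.97 for Ankrd23 and 1.57 for Fhl1, while the difference between ages was called for Fhl1 (adjusted p = 0.0439) and not for Ankrd23 (adjusted p = 0.0669). Same-numbered adult arrays had correlations of deviations from their group means of 0.31, -0.0556 and 0.445, and newborn ones 0.177 and -0.153. The second transgenic adult correlated best with the first control adult (0.307). Not every pair deviated together, so the numbers were not taken as pairs. With at most 3 arrays a group, and 2 control newborns, differences of the size of the newborn intervals could not be resolved.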
